A study of Mus musculus with 9 samples.

Results

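Selenium acts in the liver mainly through selenoproteins, enzymes that carry the amino acid selenocysteine. The expression of 9 selenium genes was examined in mouse liver 48 h after CD40 was activated. These were Sepp1, which encodes the plasma selenium carrier selenoprotein P, Dio1 (type 1 deiodinase), the glutathione peroxidases Gpx1, Gpx3 and Gpx4, Sepw1 (selenoprotein W), Sephs2 (selenophosphate synthetase 2), and the selenium-binding protein genes Selenbp1 and Selenbp2. They were chosen by name, as listed genes for selenoproteins and selenium handling, with earlier results of these data known. They make up 9 of the 24341 genes in the deposited table. All 9 had a value in every mouse and passed the filter on low values.

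Bulk liver RNA from 9 wild-type C57BL/6 mice was sequenced from the 3′ end of transcripts. Mice 2, 5 and 9 received anti-CD40, an agonist antibody against the immune receptor CD40, and the 6 control mice received PBS (mice 3, 4, 7, 8, 11 and 12). The study's methods give sex-matched mice aged 8 to 12 weeks unless noted otherwise, and the table holds 1 library per mouse at 1 time point. Values are FPKM, in which fragment counts are divided by transcript length and by the mapped fragments of each library. In 3′ data the length term makes FPKM of different genes not comparable, so levels of single genes are not compared with each other here. The length term cancels in the change of a single gene if it is the same in every mouse. Sums over marker lists and shares of the summed FPKM do add up different genes, and are weighted toward those of high FPKM. In whole liver, fewer cells of a type and less RNA per cell cannot be told apart.

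Selenocysteine is inserted at a TGA codon that would otherwise end translation, and a hairpin in the 3′ end of the mRNA directs this reading. Liver is the main source of circulating selenoprotein P, which supplies selenium to other organs. The glutathione peroxidases reduce hydrogen peroxide or lipid peroxides, and type 1 deiodinase converts thyroxine to the active thyroid hormone. The selenium-binding proteins carry selenium by another chemistry and are not selenoproteins.

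The TGA codon is shown for the 7 genes that encode selenoproteins, because it is the feature they share and the selenium-binding genes lack. The windows come from the GENCODE M21 coding sequences on GRCm38 (mm10), run 5′ to 3′ on the coding strand over 27 bases, and have the selenocysteine codon in capitals.
Sepp1, first of 10, codon 59 of 380, chr15:3274848-3274850, plus strand, exon 2 of 5: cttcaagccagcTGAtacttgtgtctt
Sepp1, last of 10, codon 377 of 380, chr15:3279696-3279698, plus strand, exon 5 of 5: aggaagtgaaaaTGAcattcaaactaa
Dio1, codon 126 of 257, chr4:107297700-107297702, minus strand, exon 2 of 4: ggcagttgcaccTGAccttcatttctt
Gpx1, codon 47 of 201, chr9:108339451-108339453, plus strand, exon 1 of 2: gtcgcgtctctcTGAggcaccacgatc
Gpx3, codon 73 of 226, chr11:54907256-54907258, plus strand, exon 2 of 5: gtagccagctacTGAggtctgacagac
Gpx4, codon 73 of 197, chr10:80054737-80054739, plus strand, exon 3 of 7: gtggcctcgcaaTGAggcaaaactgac
Sepw1, codon 13 of 88, chr7:15920464-15920466, minus strand, exon 2 of 6: tattgtggagctTGAggctataagccc
Sephs2, codon 63 of 452, chr7:127273731-127273733, minus strand, exon 1 of 1: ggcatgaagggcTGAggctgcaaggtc
Sepp1 held 10 selenocysteine codons, of which 9 lay in the last exon between codons 259 and 377, whereas each of the other 6 selenoprotein genes held 1. In Gpx1, Gpx3, Gpx4, Sepw1 and Sephs2 the TGA was followed by GG. The coding sequences of Selenbp1 and Selenbp2, each of 472 codons, held 0 in-frame TGA codons.

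**Figure D1:**
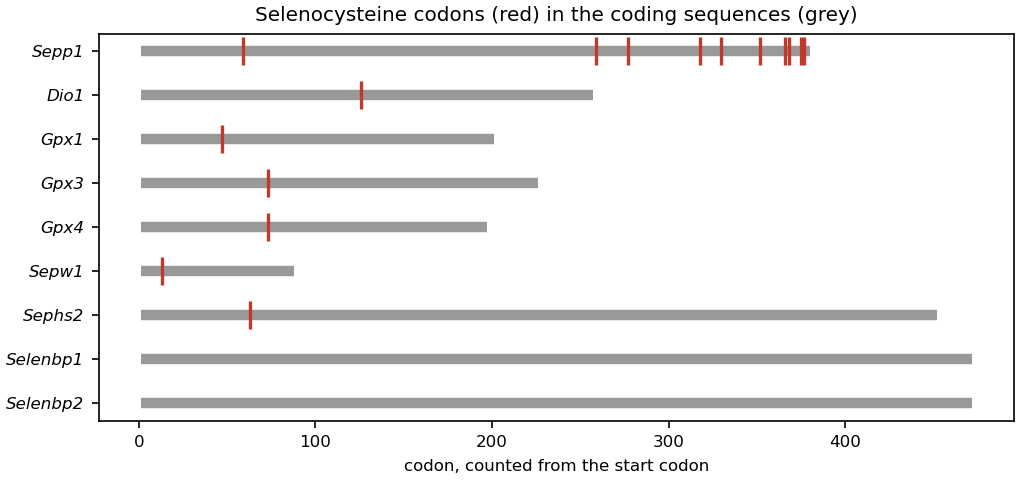
Position of selenocysteine codons (red ticks) along the coding sequence (grey bars) of the 9 genes, with the codon number from the start codon on the x axis. Sepp1 has 10 ticks, 9 of them from codon 259 on, the other 6 selenoprotein genes have 1 each, and Selenbp1 and Selenbp2 have 0.

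After anti-CD40, 4 of the 9 genes were lower (Sepp1, Gpx1, Selenbp1 and Selenbp2), 0 were higher, and 5 did not pass the test (Dio1, Gpx3, Gpx4, Sepw1 and Sephs2). These calls are adjusted p-values under 0.05 from limma with Benjamini-Hochberg adjustment over 13807 genes, of which 21.7% were called lower, 23.5% higher, and 45.1% either way. For Sepp1, Gpx1, Sephs2 and Selenbp1, every anti-CD40 mouse was below every control mouse, which held for 19.6% of all genes tested, while 22.7% lay wholly above the controls. Without anti-CD40 mouse 5 and control mouse 4, whose libraries stood apart, 4 were again lower, with Gpx4 called and Selenbp2 not. The median log2 fold change was -0.84 over the 9 genes and 0.01 over all genes tested. Of the 7 selenoprotein genes, 2 were called lower, and of the selenium-binding genes, both.

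Cell type markers and the makeup of the libraries also differed between the groups. The hepatocyte markers (10 genes) had 7 lower, 2 higher and 1 not called, and summed to an FPKM of 29298 to 34819 after anti-CD40 and 44234 to 92196 in controls. All 6 Kupffer cell markers were lower (summed FPKM 38.7 to 50.3 against 272 to 429), and all 5 monocyte markers and the 4 neutrophil markers tested of 7 listed were higher (574 to 773 against 46.4 to 126, and 4197 to 5179 against 18.0 to 152). Of the endothelial markers 2 were higher and 1 lower of 5, with summed FPKM of 65.2 to 73.0 against 62.7 to 89.6. Anti-CD40 mouse 5 held pancreatic acinar transcripts (summed FPKM 828, against 27.7 to 190 in the other 8 mice), and control mouse 4 had the highest erythroid sum (50536, against 4176 to 14320 in the other 8). Their part in the results was not tested. The acute phase genes Saa1, Saa2 and Saa3 made up 25.4% to 25.9% of the summed FPKM after anti-CD40 and 0.0449% to 0.38% in controls. When they were left out and the libraries rescaled to equal totals, the median over all genes tested moved to 0.35 in log2, and the calls over all genes went from 3240 higher and 2990 lower to 5635 higher and 1647 lower.

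Sepp1 (chromosome 15, 3270767 to 3280508), the gene of selenoprotein P, was lower in every anti-CD40 mouse. Its FPKM was 2234, 1903 and 2124 in mice 2, 5 and 9, and ranged from 2899 to 4731 with a median of 3760 in the 6 controls. The lowest control, mouse 12, was above the highest anti-CD40 mouse, so the groups did not overlap. The mean was 2087 ± 169 (SD, n = 3) after anti-CD40 and 3779.8 ± 652 (SD, n = 6) in controls, which is 55.2% of the control mean. The log2 fold change was -0.84 (SE 0.16, adjusted p = 0.0018 from limma), and the exact 2-sided permutation p was 0.0238, the smallest that 84 splits of the mice allow. Ccdc152 overlaps Sepp1 on the other strand in GENCODE M21, although their loci in the table do not meet, and whether the counting used strand is not given in the sources used here. Ccdc152 was itself lower, with a mean FPKM of 3.38 ± 0.485 (SD, n = 3) against 7.97 ± 1.83 (SD, n = 6).

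**Figure D2:**
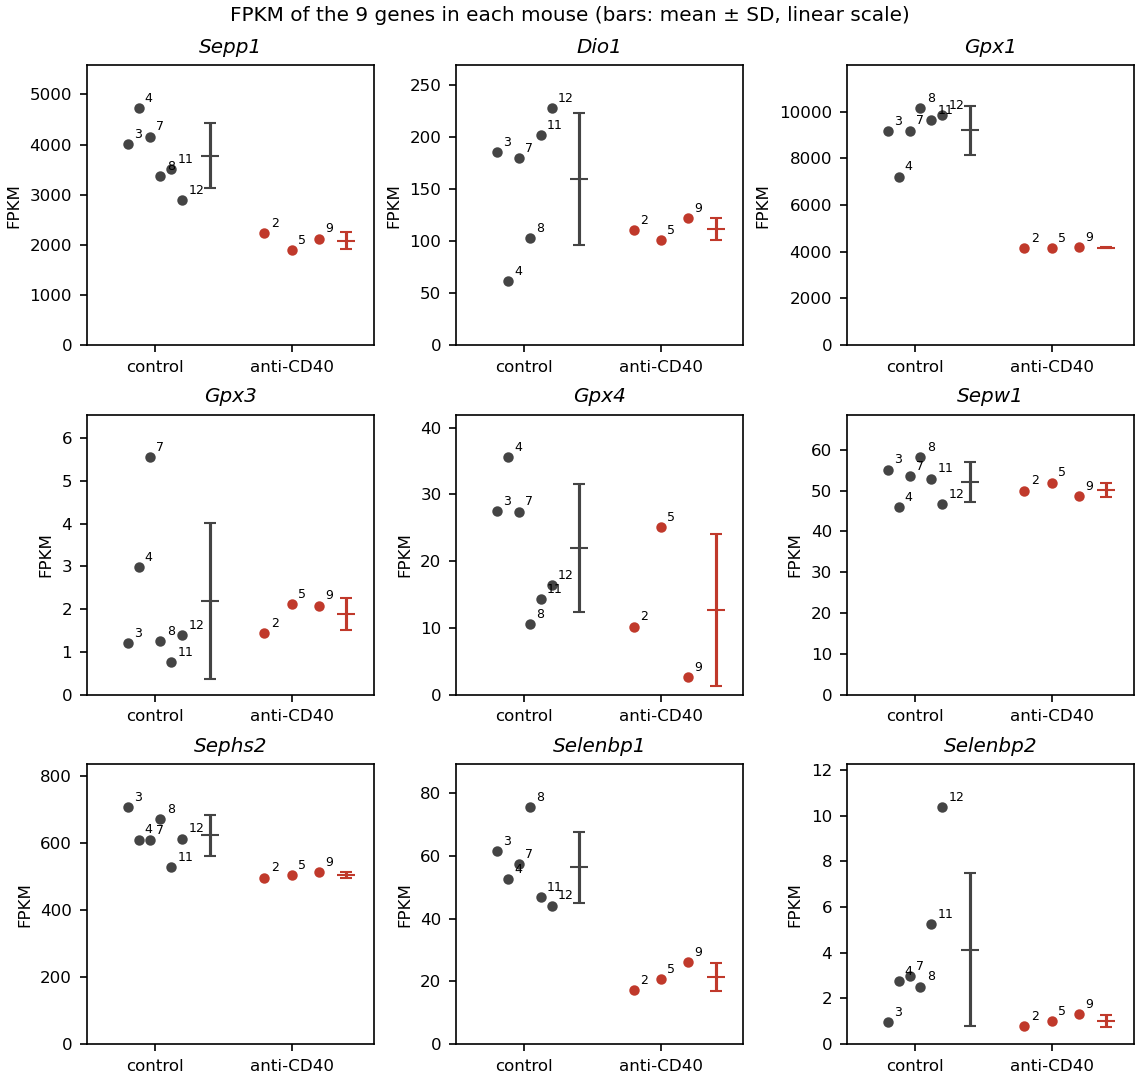
FPKM (linear y axis from 0) of each of the 9 genes in each mouse, with mouse numbers beside the points and bars for the mean ± SD of 6 control (grey) and 3 anti-CD40 (red) mice. The red points lie below all grey points for Sepp1, Gpx1, Sephs2 and Selenbp1 and overlap them for the other 5 genes.

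Of the 3 glutathione peroxidase genes, 1 was called. Gpx1 (chromosome 9, 108339080 to 108340344), which encodes the cytosolic enzyme that reduces hydrogen peroxide, was lower in every anti-CD40 mouse. Its FPKM was 4151, 4168 and 4213 in mice 2, 5 and 9, against 7217 to 10157 in controls with a median of 9407. The anti-CD40 mice lay close together, and even the lowest control, mouse 4, was well above them. The mean fell from 9198 ± 1044 (SD, n = 6) to 4177 ± 32.2 (SD, n = 3), which is 45.4% of the control mean. The log2 fold change was -1.13 (SE 0.14, adjusted p = 9.55e-05 from limma, exact permutation p = 0.0238), and without a filter on low values the adjusted p was 0.0521.

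Gpx4, which encodes the enzyme that reduces lipid peroxides within membranes, varied so widely that no change was called. Its FPKM was 10.2, 25.1 and 2.67 in mice 2, 5 and 9, and 10.5 to 35.5 with a median of 21.9 in controls. Mouse 5 lay inside the control range and mice 2 and 9 below it. The log2 fold change was -1.18 (95% confidence interval -2.52 to 0.17, adjusted p = 0.14 from limma, exact permutation p = 0.167). A single mouse decided the value, since it was -1.92 (adjusted p = 0.0215) without mouse 5 and -0.33 (adjusted p = 0.628) without mouse 9. The table gives Gpx4 a locus on chromosome 10 from 79697305 to 80369637 that it shares with 48 other genes, so how fragments were divided among them is uncertain.

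Gpx3, which encodes the peroxidase secreted into plasma, mainly by the kidney, was at an FPKM of 5.55 or less and split the control mice. Its FPKM was 1.44, 2.12 and 2.08 in the anti-CD40 mice and 0.766 to 5.55 with a median of 1.32 in controls. The high controls were mouse 7 (5.55) and mouse 4 (2.99), and the other 4 were at 1.40 or less. The kidney marker Kap, a proximal tubule gene, was also highest in these mice, with an FPKM of 3.49 in mouse 7 and 2.42 in mouse 4, against 0.01 to 0.132 in the other controls and 0.45, 0.01 and 1.41 in anti-CD40 mice 2, 5 and 9. The 5 kidney markers, Kap among them, summed to 4.09 in mouse 7, 2.66 in mouse 4 and at most 1.89 in any other mouse. Kap made up most of these sums, so they add little to its own values. The part of kidney transcripts in the Gpx3 values was not tested. For Gpx3 (chromosome 11, 54902854 to 54910382) the log2 fold change was 0.08 (95% confidence interval -1.05 to 1.21, adjusted p = 0.909 from limma, exact permutation p = 0.833).

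The difference between the changes of a pair of genes was tested on their log2 ratio within each mouse, for 6 pairs. Gpx1 and Gpx3 differed by -1.21 in log2 change (exact permutation p = 0.167, adjusted over the 6 pairs 0.381), Gpx3 and Gpx4 by 1.26 (p = 0.19, adjusted 0.381), and Gpx1 and Gpx4 by 0.05 (p = 0.976, adjusted 0.976). Leaving out anti-CD40 mouse 9 moved the last of these to -0.81 and the Gpx3 and Gpx4 difference to 0.33. So the calls of the peroxidases differed, but no difference in change between them was shown.

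Dio1 (chromosome 4, 107291465 to 107307143), which encodes the deiodinase that activates thyroid hormone in liver, was not called. Its FPKM was 111, 101 and 122 in mice 2, 5 and 9, and ranged from 61.4 to 228 with a median of 182 in controls. Control mice 4 (61.4) and 8 (103) overlapped the anti-CD40 mice, while the other 4 controls, at 179.6 or more, lay above them. The mean was 111 ± 10.5 (SD, n = 3) against 159.8 ± 63.8 (SD, n = 6), and the highest control was 3.71 times the lowest. For Dio1 the log2 fold change was -0.39 (95% confidence interval -1.22 to 0.43, adjusted p = 0.414 from limma, exact permutation p = 0.452). Without control mouse 4 the log2 fold change of Dio1 was -0.64 with an adjusted p of 0.0418 from limma. Without both control mouse 4 and anti-CD40 mouse 5, Dio1 was not called (-0.58, adjusted p = 0.126). When the Saa genes were left out it was -0.03 (adjusted p = 0.955), or -0.38 relative to the median of all genes. Sepp1 and Dio1 differed by -0.45 in log2 change (exact permutation p = 0.452, adjusted over the 6 pairs 0.679).

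Sephs2 (chromosome 7, 127271879 to 127274059) encodes the enzyme that makes selenophosphate, the selenium donor for selenocysteine, and is itself a selenoprotein. Its FPKM was 497, 504 and 515 in the anti-CD40 mice and 529 to 709 with a median of 613 in controls. The groups did not overlap, but mouse 9 and control mouse 11 lay close together. The mean was 505 ± 8.82 (SD, n = 3) against 624 ± 61.5 (SD, n = 6), or 81% of the control mean. The log2 fold change was -0.30 (SE 0.11, exact permutation p = 0.0238), and the adjusted p of 0.0506 from limma just missed the threshold. It was called without control mouse 11 (-0.345, adjusted p = 0.028), and its direction turned under quantile normalization (0.17) and without the Saa genes (0.07). Relative to the median of all genes, however, it was -0.30 as deposited and -0.28 without the Saa genes, against 0.26 under quantile normalization. The changes of Sepp1 and Sephs2 differed by -0.54 in log2, with an exact permutation p of 0.0238 that became 0.143 after adjustment over the 6 pairs. The unadjusted p is the smallest the group sizes allow, and no other pair reached it. The adjusted value therefore could not pass 0.05 and decides nothing for this pair. Every treated mouse had a lower log2 ratio of Sepp1 over Sephs2 (at most 2.17) than any control (at least 2.24).

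Sepw1 (chromosome 7, 15917208 to 15922371), the gene of the small redox protein selenoprotein W, had nearly the same FPKM in both groups. It was 49.99, 52.0 and 48.7 in the anti-CD40 mice, and 45.9 to 58.1 with a median of 53.3 in controls, so that all 3 anti-CD40 mice lay inside the control range. Its log2 fold change was -0.05 (95% confidence interval -0.28 to 0.19, adjusted p = 0.738 from limma, exact permutation p = 0.595). The direction depended on the scaling, at 0.23 (adjusted p = 0.0915) under quantile normalization and 0.32 (adjusted p = 0.0272) without the Saa genes. Relative to the median of all genes in that last scaling it was -0.03.

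**Figure D3:**
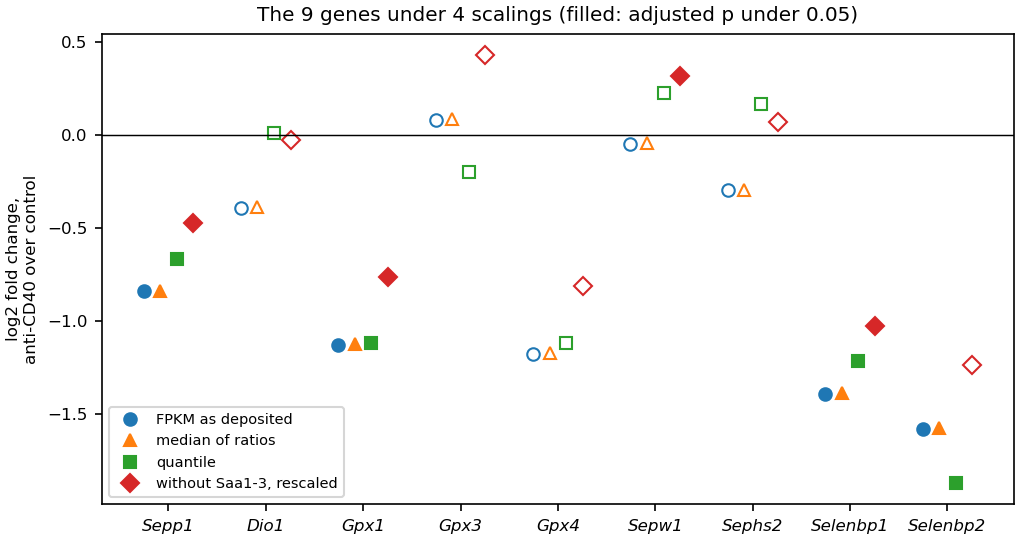
Log2 fold change (anti-CD40 over control, y axis) of the 9 genes (x axis) for the FPKM as deposited, after median of ratios scaling, after quantile normalization, and without Saa1, Saa2 and Saa3, with filled symbols for adjusted p under 0.05. Sepp1, Gpx1 and Selenbp1 stay below 0 and filled in all 4 scalings, whereas Sepw1 moves from -0.05 to 0.32 and Sephs2 from -0.30 to 0.17.

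Both selenium-binding protein genes, which lie on chromosome 3, were called lower. Selenbp1 (94933083 to 94944758) encodes a hepatic protein that acts as a methanethiol oxidase. Its FPKM was 17.2, 20.7 and 26.2 in mice 2, 5 and 9, and 44.2 to 75.6 with a median of 55.1 in controls. No control came near the anti-CD40 mice. The mean was 21.4 ± 4.55 (SD, n = 3) against 56.4 ± 11.4 (SD, n = 6), or 37.9% of the control mean, and the log2 fold change was -1.39 (SE 0.19, adjusted p = 0.000175 from limma, exact permutation p = 0.0238).

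Selenbp2 (94693573 to 94704406), its close paralog, was at an FPKM of 0.787, 0.998 and 1.31 in the anti-CD40 mice and 0.949 to 10.4 with a median of 2.87 in controls. Control mouse 3, at 0.949, lay among the anti-CD40 mice, and mouse 12 had the highest value, 10.9 times that of mouse 3. The log2 fold change was -1.58 (SE 0.57, adjusted p = 0.0434 from limma), with an exact permutation p of 0.0714. This call was lost without any 1 of anti-CD40 mice 2, 5 and 9 (adjusted p = 0.142, 0.104 and 0.0713) or of control mice 4, 7, 8 and 11 (0.0503, 0.0626, 0.0548 and 0.0785).

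The selenium-binding genes cannot be fully separated in these data. Their GENCODE M21 coding sequences were identical at 1398 of 1416 bases (98.7%), and the last 300 bases of their transcripts, where a 3′ library reads, at 93.8%. Of the 226 stretches of 75 bases in the last 300 of Selenbp1, 79 were found exactly in Selenbp2, 75 being chosen here because the read length is not given in the sources used here. How fragments that fit both were counted is not given either. The difference between their changes was 0.19 in log2 (exact permutation p = 0.81, adjusted over the 6 pairs 0.971). Their log2 ratio, Selenbp1 over Selenbp2, was 4.22 to 4.29 in the anti-CD40 mice. In controls it ranged from 2.08 to 5.87, with 4.21 in mouse 4 and 4.23 in mouse 7. The part of shared fragments in the Selenbp2 values was not tested.

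Each gene was also set against the mean log2 level of the 10 hepatocyte markers in the same mouse, which was itself lower by -0.96 in log2 (exact permutation p = 0.0238). Relative to it, Sepp1 changed by 0.12, Gpx1 by -0.17, Gpx4 by -0.21, Selenbp1 by -0.43 and Selenbp2 by -0.62, with exact permutation p-values between 0.167 and 0.786. Sepw1 (0.92) and Sephs2 (0.67) were above the controls in every anti-CD40 mouse on this scale. The exact permutation p was 0.0238 each, which became 0.107 after adjustment over the 9 genes. That p is the smallest the group sizes allow. With only Sepw1 and Sephs2 at it, neither could pass 0.05 after adjustment, so the adjusted value decides nothing for them. Dio1 (0.57) and Gpx3 (1.05) had adjusted values of 0.214 and 0.321. These relative values rest on the markers chosen, since albumin (Alb) alone, with a log2 fold change of -2.43, gave all 9 genes a relative change above 0, 7 of them with an adjusted p of 0.0306. With the median log2 level of the 10 markers in place of the mean, Sepp1, Dio1, Gpx1, Sepw1 and Sephs2 were above the controls. Their exact permutation p adjusted over the 9 genes was 0.0429. That median is set by the markers that rank in the middle by FPKM in each mouse. It is not their median log2 fold change, which was -1.01, so these values depend on levels that are not comparable between genes.

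Among the 16 other selenoprotein genes in the table, 15 were tested, with 3 higher, 3 lower and 9 not called and a median log2 fold change of -0.17. Gpx2, the gastrointestinal glutathione peroxidase, rose most. Its FPKM was 3.41, 1.73 and 1.495 in mice 2, 5 and 9, and 0.01, the lowest value the table gives, to 0.112 in controls. All 3 anti-CD40 mice were above every control, with a log2 fold change of 3.97 on the log2(FPKM + 0.1) scale (SE 0.32, adjusted p = 6.23e-06 from limma). Fntb overlaps Gpx2 on the other strand in GENCODE M21, although their loci in the table do not meet, and its mean FPKM was 1.08 ± 0.12 (SD, n = 3) and 0.823 ± 0.321 (SD, n = 6). The nuclear redox protein gene 2700094K13Rik (Selenoh) was at a mean FPKM of 81.6 ± 19.4 (SD, n = 3) after anti-CD40 against 39.7 ± 7.53 (SD, n = 6), and Sepn1 (Selenon), of the endoplasmic reticulum, at 1.07 ± 0.202 against 0.549 ± 0.136.

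The 3 selenoprotein genes outside the listed 9 that fell were Selo and a pair of thioredoxin reductases. Selo (Selenoo), a mitochondrial pseudokinase that transfers AMP to proteins, was at an FPKM of 1.64, 1.93 and 1.47 in mice 2, 5 and 9 and 9.07 to 12.2 in controls (log2 fold change -2.58, SE 0.13, adjusted p = 4.75e-07 from limma). Txnrd2, the mitochondrial thioredoxin reductase, fell from 14.2 ± 0.753 (SD, n = 6) to 4.77 ± 0.344 (SD, n = 3), and Txnrd3 from 2.80 ± 0.371 to 1.12 ± 0.118. The groups did not overlap for any of these 3 genes. The table gives Selo the same locus as Tubgcp6, whose log2 fold change was -0.36, and Txnrd2 a locus shared with Arvcf (-1.10), so their values are uncertain to that extent.

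The selenoprotein genes that were not called included Msrb1, a methionine sulfoxide reductase, with a mean FPKM of 1192 ± 125 (SD, n = 3) against 1169 ± 216 (SD, n = 6) and a log2 fold change of 0.05. The cytosolic thioredoxin reductase Txnrd1 had a log2 fold change of 0.14, and the endoplasmic reticulum genes Selk, Vimp, Selt, Sep15 and Selm had values of -0.14, -0.18, -0.17, -0.37 and 0.53. Ept1 (-0.75, adjusted p = 0.0798 from limma) and Dio3 (-1.29, adjusted p = 0.0831) also missed the threshold. Dio3, which inactivates thyroid hormone, was at a mean FPKM of 0.0692 and 0.381, and Dio2 was below the filter on low values.

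**Figure D4:**
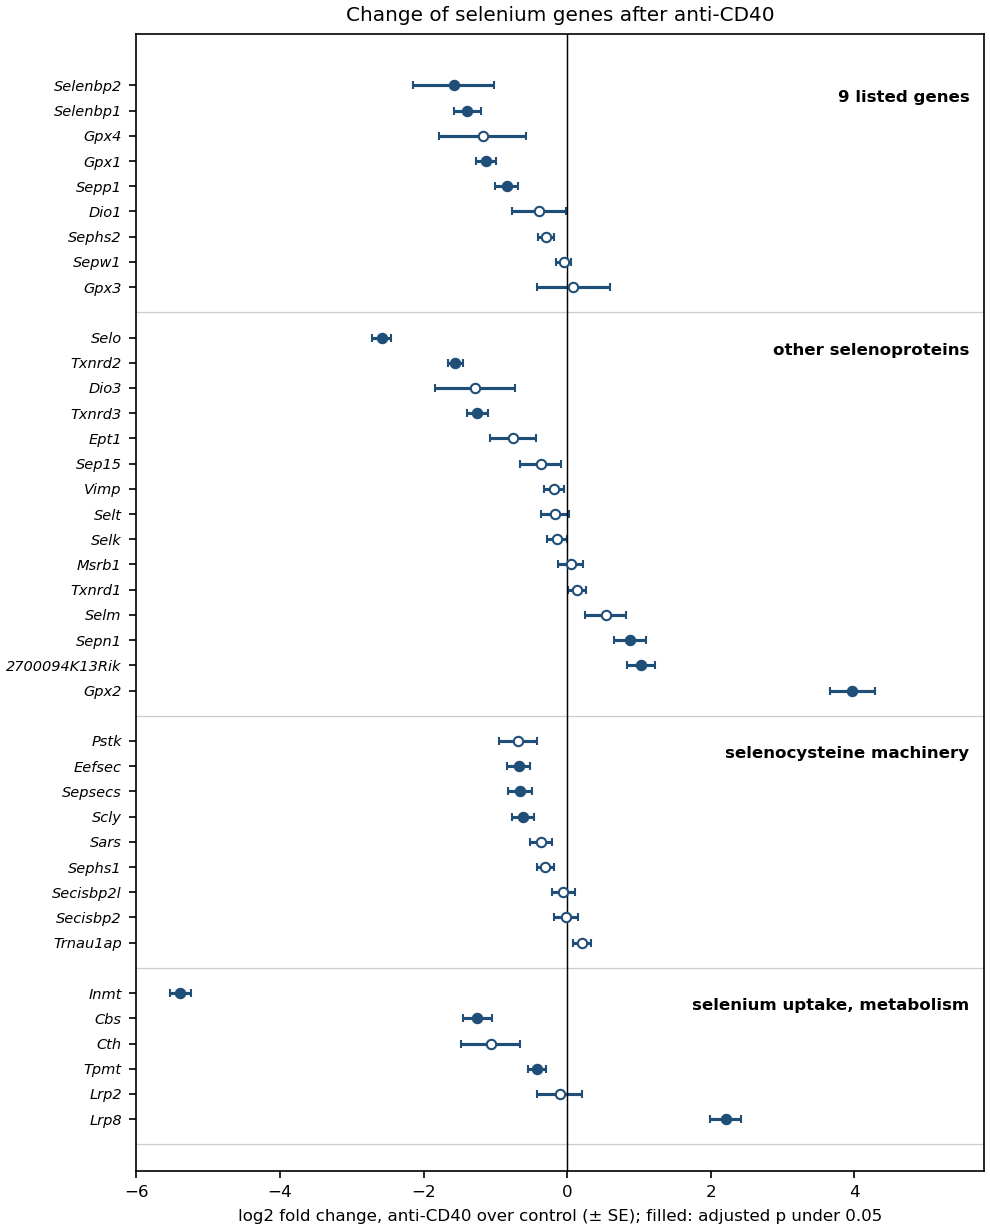
Log2 fold change (anti-CD40 over control, x axis, ± SE) from 3 anti-CD40 and 6 control mice for the 9 genes, 15 other selenoprotein genes, 9 genes of the selenocysteine machinery and 6 of selenium uptake and metabolism, with filled circles for adjusted p under 0.05. The values run from -5.39 for Inmt to 3.97 for Gpx2, and 8 of the 9 machinery genes lie below 0.

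Of the 9 genes that make, insert or recycle selenocysteine, 3 were lower, 0 were higher and 6 were not called, with a median log2 fold change of -0.37. Those called were Sepsecs, which forms selenocysteine on its tRNA (-0.66, adjusted p = 0.0103 from limma), Eefsec, the elongation factor that brings that tRNA to the ribosome (-0.68, adjusted p = 0.00562), and Scly, which recovers selenium from selenocysteine (-0.61, adjusted p = 0.00786). Pstk, the kinase of the preceding step, had a log2 fold change of -0.68 with overlapping groups (adjusted p = 0.0583). Secisbp2, whose protein binds the hairpin that recodes TGA, had a value of -0.02 (adjusted p = 0.946). The number called in this list was 1 without the Saa genes, 5 without control mouse 4, and 6 with quantile normalization or array weights.

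Of 6 genes for selenium uptake and metabolism, 3 were lower, 1 was higher and 2 were not called. Inmt, whose enzyme can methylate selenium compounds as well as amines, had an FPKM of 28.8, 22.5 and 30.3 in mice 2, 5 and 9 and 888 to 1296 in controls (log2 fold change -5.39, SE 0.15, adjusted p = 1.31e-08 from limma). Cbs, of the transsulfuration pathway, fell from 102 ± 20.9 (SD, n = 6) to 43.2 ± 10.7 (SD, n = 3), and the methyltransferase gene Tpmt from 10.01 ± 1.38 to 7.40 ± 0.171. Lrp8, a receptor through which cells take up selenoprotein P, was at or near the floor in controls (0.01 to 0.0248) and at 0.572, 0.318 and 0.428 in the anti-CD40 mice, a log2 fold change of 2.21 on the log2(FPKM + 0.1) scale (adjusted p = 2.21e-05).

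Antioxidant genes that do not depend on selenium were described beside Gpx1. Of the 21 tested, 9 were lower, 3 were higher and 9 were not called, with a median of -0.31. Cat (catalase), which like Gpx1 removes hydrogen peroxide, was at an FPKM of 475, 471 and 465 in mice 2, 5 and 9 and 1224 to 1447 in controls (log2 fold change -1.501, SE 0.10, adjusted p = 2.7e-06 from limma). Sod1, the cytosolic superoxide dismutase, and the peroxiredoxin gene Prdx4 had log2 fold changes of -1.47 and -1.30, and Gpx6 fell by 2.52 on the log2(FPKM + 0.1) scale from a mean FPKM of 0.758. The genes that rose were Srxn1, which repairs peroxiredoxins (0.92), the mitochondrial superoxide dismutase Sod2 (0.80) and Gpx7 (0.76).

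For Dio1, genes of thyroid hormone transport and response were described. Of the 11 tested, 7 were lower, 1 was higher and 3 were not called, with a median of -0.69. Thrsp, a lipogenic gene that thyroid hormone induces, was at an FPKM of 9.06, 13.8 and 13.9 in mice 2, 5 and 9 and 233 to 999 in controls (log2 fold change -5.01, SE 0.40, adjusted p = 6.43e-06 from limma). The plasma carrier gene Ttr, also a hepatocyte marker, had a value of -1.96, Me1, another gene induced by the hormone, -1.77, and Iyd, which recovers iodide, -1.21. The receptor genes Thra and Thrb had values of -0.69 (adjusted p = 0.00934) and -0.67 (adjusted p = 0.00658). Serpina7, which encodes thyroxine-binding globulin, was higher after anti-CD40, at 36.9 ± 9.82 (SD, n = 3) against 4.53 ± 2.04 (SD, n = 6).

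For 4 of the 9 genes, the tested genes with the most similar values were found by the root mean square difference of log2 values, centred on the control mean, over the 9 mice. For Sepp1 these were Rps27l (0.0829), Fam216a (0.101) and Serf1 (0.103). For Dio1 they were Rarres1 (0.263), Rgp1 (0.279) and Plcxd1 (0.295), and for Gpx3, Eya2 (0.259) and Ldb3 (0.343) were among them. For Selenbp2 the nearest, Mcm10 (0.538), Ces3a (0.543) and Slc30a3 (0.565), were farther away. The values within a mouse share a library.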

How the data were processed

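The authors prepared QuantSeq 3′ FWD libraries from total liver RNA, sequenced them on an Illumina NextSeq instrument, aligned reads to mm10 with STAR and ran Cufflinks and CuffDiff. The authors deposited FPKM values with a floor of 0.01. The annotation, strand setting and read length are not given in the sources used here. The 15 genes with a failed estimate were left out of 24341. Treatment was tested on log2(FPKM + 0.1) in the 13807 genes that averaged 0.1 FPKM or more, using lmFit and trended eBayes of limma 3.58.1 (R 4.3.3) with 2-sided Benjamini-Hochberg adjusted p-values and a threshold of 0.05, since FPKM suit no count test. Fold changes on this scale understate the change of low genes. Single values were compared by exact permutation over 84 splits. Python 3.11.15, pandas 2.3.3, scipy 1.17.1 and matplotlib 3.10.9 did the rest, and the fit was tested on simulated data.

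The absolute depth is unknown. The relative depth of the libraries, estimated from the most common ratio of low values between mice, was between 0.87 and 1.13 times their geometric mean. With these depths, values in 88.3% of 1825 low genes were within 3% of whole numbers of reads in every mouse. That tolerance widens with the number of reads and lets larger numbers pass easily, so this share does not establish the depths. Between 14684 and 15545 genes per mouse were above the floor. Groups came from the sample labels, which name each mouse but not its cage or batch, so p-values measure the spread between these mice.

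The 9 genes, the gene lists and the alternatives were chosen with earlier results of these data known. Named genes are the 9, the largest called changes of each list (at most 4 a direction) with other genes of lists of up to 17 genes, and the 3 nearest genes for Sepp1, Dio1, Selenbp2 and Gpx3, of which 1 is not reported here. Older symbols were matched through aliases written beside the listed genes. Of 23306 symbols shared with GENCODE M21, 23052 (98.91%) had overlapping loci. Selenov had no row in the table and is not analysed here. The alternatives were other pseudocounts, filters, scalings, eBayes settings and array weights, other hepatocyte denominators, a fold change of at least 2, and leaving out each mouse.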

Additional observations from a re-analysis of the deposited data

Results flagged for a closer look

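Among 48 results with values in the 6 control mice, 2 had a control mouse whose gap to the next mouse, as a share of the control range, was above the 95% limit, where chance gives about 2.4. In Gpx1, control mouse 4 was the lowest control, with an FPKM of 7217 and a gap of 0.658 of the range. This mouse also had the highest erythroid sum, and without it the log2 fold change of Gpx1 was -1.20. In Sepw1 relative to the hepatocyte markers, control mouse 12 was the lowest, at -5.32 on the log2 scale with a gap of 0.653 of the range. The hepatocyte marker mean was highest in this mouse, at 10.87.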

How the results depend on the processing

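Sepp1 and Selenbp1 stayed lower and called in all 20 alternative fits run for each, with log2 fold changes of -0.92 to -0.48 and -1.55 to -1.03. Without the Saa genes Sepp1 only just passed (-0.476, adjusted p = 0.0487 from limma), unlike Selenbp1 (adjusted p = 0.00115). Gpx1 stayed lower and called in 19 of 20, the exception being no filter (-1.130, adjusted p = 0.0521). A required fold change of at least 2 left 3 of the 9 genes called lower, without Sepp1 (-0.84). With no filter, 2 of the 9 genes were called lower, and Selenbp2 (-1.581) was lost. Selenbp2 was also lost with a pseudocount of 1 (-1.124), without the Saa genes (-1.240), and without both anti-CD40 mouse 5 and control mouse 4 (-1.615), an alternative chosen after seeing the data in which Gpx4 was called (-1.759). Sephs2 was called with a mean FPKM of at least 1 (-0.299), robust eBayes (-0.299) and array weights (-0.300). Under quantile normalization, directions turned for Dio1 (0.008), Gpx3 (-0.198), Sepw1 (0.226) and Sephs2 (0.168), and without the Saa genes for Sepw1 (0.318) and Sephs2 (0.067). Relative to the median of all genes, the values without the Saa genes were -0.825 for Sepp1, -0.032 for Sepw1, -0.282 for Sephs2 and -1.590 for Selenbp2. As deposited they were -0.847, -0.053, -0.304 and -1.587 in the same order. Over all genes, 5635 were called higher and 1647 lower without the Saa genes, and 1889 and 1253 with a fold change of at least 2. With a pseudocount of 1, the difference between Gpx1 and Gpx4 was -0.078 and that between Selenbp1 and Selenbp2 -0.231. The cause of these changes was not tested.

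Relative to Alb alone, the change was 1.586 for Sepp1, 2.034 for Dio1, 1.297 for Gpx1, 2.510 for Gpx3, 1.252 for Gpx4, 2.380 for Sepw1, 2.129 for Sephs2, 1.035 for Selenbp1 and 0.846 for Selenbp2. Relative to the median log2 level of the markers, which depends on how they rank by FPKM, it was 0.915 for Sepp1, 1.363 for Dio1, 0.627 for Gpx1, 1.839 for Gpx3, 0.581 for Gpx4, 1.709 for Sepw1, 1.458 for Sephs2, 0.365 for Selenbp1 and 0.176 for Selenbp2. The adjusted p from the exact permutation test was 0.0429 for Sepp1, Dio1, Gpx1, Sepw1 and Sephs2 and 0.0714 for Gpx3. Leaving out 1 mouse at a time gave log2 fold changes of -0.643 to -0.265 for Dio1, -0.136 to 0.405 for Gpx3, -1.923 to -0.329 for Gpx4, -0.345 to -0.261 for Sephs2 and -1.914 to -1.250 for Selenbp2. It gave -0.807 to 0.794 for the difference between Gpx1 and Gpx4, 0.333 to 1.913 for that between Gpx3 and Gpx4, and -0.952 to 0.709 for Gpx4 relative to the markers. No paired analysis was possible because the groups share no mouse number. The absolute depth is unknown, so no counting error could be set beside these values.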
